A study of Homo sapiens with 22 samples.

Results

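ETV6, SOX5, PKP2 and TMTC1 are 4 genes on the short arm of chromosome 12 near which several regions enriched for H3R2me2a lay, the asymmetric dimethylation of arginine 2 of histone H3 that the enzyme PRMT6 places. Their regions were all those of the promoter and enhancer lists for which the authors gave one of the 4 genes as nearest, 46 of 8819 regions in all. ETV6 had 17, SOX5 12, PKP2 9 and TMTC1 8. The genes were selected on their number of regions, as measured in these lists, so these counts describe the choice and are not a result.

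The study used NT2/D1 cells, a pluripotent human embryonal carcinoma line, with ChIP-seq for H3R2me2a, other histone marks and control IgG in 22 samples. The lists came from 2 H3R2me2a libraries of cells labelled as CRISPR/Cas9 controls, not of PRMT6-deleted cells, 1 of cells given ATRA (all-trans retinoic acid, 1 µM) over 3 days and 1 of cells grown without it. The antibody was a rat monoclonal made in the laboratory. The other 20 samples, among them cells with PRMT6 deleted, were not analysed here. Each condition had 1 library, so no value has a replicate error and no p-value is given; intervals are exact Clopper-Pearson 95% intervals and cover counting error only.

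H3R2me2a lies beside lysine 4 of the same histone tail and is known to hinder the methylation of that lysine. ATRA makes NT2/D1 cells leave the pluripotent state. ETV6 encodes a transcriptional repressor of the ETS family that is needed in blood formation. SOX5 encodes a SoxD transcription factor of cartilage and neuronal development, PKP2 an armadillo-repeat protein of desmosomes, the junctions that hold epithelial and heart muscle cells together, and TMTC1 an enzyme that adds mannose to cadherins. Extra copies of the short arm of chromosome 12 are a hallmark of human germ cell tumours as a class; copy number in these cells was not analysed here.

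The authors sorted regions into cluster I (202 regions) and cluster II (2098), deposited under the library without ATRA, and cluster III (6519), deposited under the ATRA library. MACS tags, the tag count of the peak caller, were given for clusters III and I, and tagcount, another count of tags per region, for every region. No source used here names the library of tagcount. In cluster I, from the library without ATRA, tagcount exceeded the MACS tags by 0 to 8 tags (median 3), so tagcount is read below as a probable count of the library without ATRA. Sequencing depth is unknown and neither column was scaled, so a ratio of MACS tags to tagcount was read only against the ratios of other regions. For cluster III this compares the probable ATRA count with the probable count without ATRA. Coordinates of regions are on hg19.

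A promoter sequence could be tied to a region for ETV6. Its cluster II region of the promoter list lay 658 bp upstream of the start of transcript ENST00000396373, and in GENCODE 44 that transcript starts at the very base from which RefSeq's ETV6 promoter was cut. The 250 bases before it (RefSeq, GRCh38.p14, plus strand, chr12:11649424-11649673) are shown because they belong to a start with a region beside it. For SOX5, the 250 bases before the RefSeq start (GRCh38.p14, minus strand, chr12:24562492-24562741) are shown for contrast, since the promoter-list regions of SOX5 lay beside the start of another transcript, ENST00000451604, which is 613 kb away from it in GRCh38. Capitals mark GGGCGG, the GC box, on either strand.
ETV6: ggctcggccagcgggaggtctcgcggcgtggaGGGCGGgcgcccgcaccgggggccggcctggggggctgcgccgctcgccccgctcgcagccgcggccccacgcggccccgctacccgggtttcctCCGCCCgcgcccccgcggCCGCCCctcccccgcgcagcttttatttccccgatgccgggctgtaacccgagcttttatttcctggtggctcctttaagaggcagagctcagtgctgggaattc
SOX5: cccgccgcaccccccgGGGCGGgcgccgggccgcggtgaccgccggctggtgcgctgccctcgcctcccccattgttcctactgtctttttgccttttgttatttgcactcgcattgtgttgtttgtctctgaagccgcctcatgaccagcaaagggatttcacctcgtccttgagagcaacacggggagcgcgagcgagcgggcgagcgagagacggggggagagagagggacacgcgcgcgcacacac
From 250 bases before to 50 after the start, ETV6 held 3 GC boxes and 33 CG dinucleotides, and SOX5 held 1 GC box and 29 CG dinucleotides. A GC box was present in 45.0% of all 35116 RefSeq promoters of the same length, and the median promoter held 14 CG dinucleotides (quartiles 4 and 28). Other motifs were searched on both strands. AGGTCA, the core site of nuclear receptors, was in neither window and in 13.8% of all promoters, so that its direct repeats with 5 or 2 bases between the copies were absent from both windows as well. CCAAT (34.6% of all promoters), TATAAA (11.5%) and CCGGAA, a longer form of the ETS core GGAA (17.2%), were also in neither. GGAA by itself was not counted. ACAAT, the SOX core, was in the SOX5 window 2 times and not in that of ETV6, and 27.4% of all promoters held it. Regions and promoters are on different genome builds, so it is not known whether the bases shown lie inside a region. TMTC1 also has RefSeq promoter entries, and PKP2 was not matched.

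Most regions of the 4 genes lay in introns. The authors placed 35 of the 46 (76.1%, 61.2 to 87.4) in introns, against 23.0% of all 8819 regions. The share was 14 of 17 for ETV6 (82.4%, 56.6 to 96.2), 9 of 12 for SOX5 (75%, 42.8 to 94.5), 7 of 9 for PKP2 (77.8%, 40.0 to 97.2) and 5 of 8 for TMTC1 (62.5%, 24.5 to 91.5). It was 30.8% (27.1 to 34.7) among the 594 other regions of the short arm and 22.1% (21.2 to 23.0) among the 8179 remaining ones. The intervals of ETV6, SOX5 and PKP2 lay above both, and that of TMTC1 overlapped the short arm's. They count each region as independent, although 4 of the 8 gaps in PKP2 were shorter than 1 kb. With regions under 1 kb apart counted as 1, introns held 85.7% of 14 regions in ETV6, 77.8% of 9 in SOX5 and 80% of 5 in PKP2. No intervals were computed for these, so the separation of PKP2 in particular rests on counting close regions apart. The genes were selected on many regions, and what this choice adds to the share was not tested. In 13 other genes with at least as many regions as TMTC1, each on a single chromosome and taken for comparison after the values were seen, introns held 60 of 115 regions (52.2%, 42.7 to 61.6), an interval that overlapped that of the 4 genes together.

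The enhancer list held 40 of the 46 regions (87.0%, 73.7 to 95.1), against 52.0% of all regions. It held 59.8% (55.7 to 63.7) of the other short-arm regions and 79.1% (70.6 to 86.1) of those of the 13 genes, whose interval overlapped that of the 4 genes. Within 1000 bp of the start named by the authors lay 8 of the 46 (17.4%, 7.82 to 31.4), against 50.5% of all regions and 40.7% (36.8 to 44.8) of the other short-arm regions. In the 13 genes the share was 24.3% (16.8 to 33.2), and its interval overlapped that of the 4 genes. The median distance to a start was 18758 bp in ETV6, 17270 bp in SOX5, 3890 bp in PKP2 and 11920 bp in TMTC1, beside 2572 bp in the other short-arm regions and 6241 bp in the 13 genes.

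Cluster III held 37 of the 46 regions, cluster II 8 and cluster I 1. The 37 were 80.4% (66.1 to 90.6), against 73.9% of all regions, 88.6% (85.7 to 91.0) of the other short-arm regions and 96.5% of those of the 13 genes, whose interval began at 91.3%, above that of the 4 genes. Cluster II held 17.4% (7.82 to 31.4) of the 46 regions, against 23.8% of all regions, 8.08% (6.02 to 10.6) of the other short-arm regions and 2.61% (0.541 to 7.43) of those of the 13 genes. The 8 were 4 of SOX5, 3 of TMTC1 and 1 of ETV6. Regions of every cluster were counted when the genes were chosen.

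**Figure D1:**
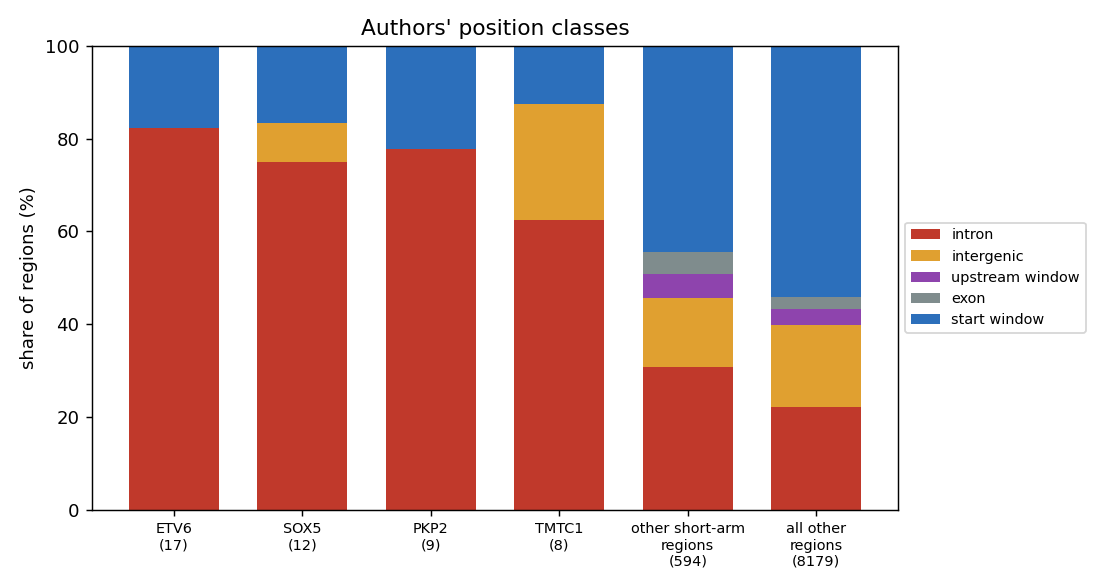
Share of regions (%) in each of the authors' position classes for ETV6, SOX5, PKP2 and TMTC1, the other short-arm regions of chromosome 12 and all other regions, with the number of regions in brackets. Introns made up 62.5 to 82.4% of the regions of the 4 genes, 30.8% of the other short-arm regions and 22.1% of all others.

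ETV6, on the plus strand, carried regions over 237 kb (chr12:11801935-12038542). At the 5′ end, 2 promoter-list regions lay 557 bp apart. The first, in cluster II (chr12:11801935-11802670), had a tagcount of 78, and the second, in cluster III and 841 bp beyond the start of transcript ENST00000544715, had 73 MACS tags and a tagcount of 61. The 13 intronic cluster III regions had 32 to 137 MACS tags, and their tagcount was 15 to 98. They fell into groups separated by gaps of up to 54.4 kb, and 3 gaps in the gene were shorter than 1 kb.

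The strongest ETV6 region (chr12:12013929-12015255) was also its widest, at 1327 bp, with 137 MACS tags and a tagcount of 98. It lay 24188 bp upstream of the start of the transcript ENST00000266427. The region at that internal start (chr12:12038037-12038542) was 506 bp wide, with 97 MACS tags and a tagcount of 66. Per length it was the densest of the gene, with 192 MACS tags per kb and a tagcount of 130 per kb. It was in the start window and yet in the enhancer list. ETV6 also had the 1 cluster I region of the 4 genes (chr12:12007102-12007727), with 61 MACS tags and a tagcount of 64, both read as counts without ATRA. It lay 6201 bp from the strongest region.

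ETV6 had tag counts close to each other in both columns. Over its 15 cluster III regions the ratio of MACS tags to tagcount, with 1 added to each, ran from 1.02 to 2.63 with a median of 1.36, which is 0.45 on the log2 scale. The highest ratio was at a weak region (chr12:11836717-11837108) with 41 MACS tags and a tagcount of 15. The lowest was at chr12:11809137-11809783, with 57 MACS tags and a tagcount of 56. The other 2 of the 3 strongest regions were those with 97 and 93 MACS tags, with tagcount values of 66 and 68. MACS tags summed to 1007 and tagcount to 722, so that MACS tags were 58.2% of both (55.9 to 60.6).

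SOX5 regions were spread over 460 kb (chr12:23708366-24168269) on the minus strand, with gaps of up to 192 kb. The promoter list held 2 of them, at chr12:24102485-24102900 and chr12:24103035-24103399, 127 and 512 bp upstream of the start of ENST00000451604, with tagcount values of 60 and 36. Both were in cluster II, and both were paired by the authors with the same second interval (chr12:24102479-24104256, 1778 bp). The 4 cluster II regions of SOX5 had 3 such intervals between them. The intronic ones had a tagcount of 46 and of 101, and that of 101 was the highest of SOX5 (chr12:23910439-23910948).

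The strongest cluster III regions of SOX5 lay in introns further into the gene. The first (chr12:23858007-23859118) had 177 MACS tags, the most of the 46 regions, and a tagcount of 56. The second (chr12:23875450-23876175) had 143 MACS tags and a tagcount of 28, the highest ratio of the 46, at 4.97. A region classed by the authors as intergenic, 63996 bp upstream of the start of ENST00000545921, had 84 MACS tags and a tagcount of 43. RefSeq's SOX5 start is 611459 bp away from the start of that transcript in GRCh38, so the class holds for the authors' annotation only. At the 3′ end of the span of SOX5 regions, 3 regions stood 27 and 437 bp apart. The first (chr12:23708366-23708763) had 36 MACS tags and a tagcount of 19, the second 38 and 15, and the third (chr12:23709591-23710425) 74 and 16, the next highest ratio of the 46, at 4.41. An intronic region at chr12:23774696-23775059 had 40 MACS tags and a tagcount of 15.

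The 8 cluster III regions of SOX5 had ratios of 1.31 to 4.97 with a median log2 ratio of 1.32. The lowest was at chr12:23904549-23905309, with 75 MACS tags and a tagcount of 57, and it lay 1331 bp from a cluster II region. MACS tags summed to 667 and tagcount to 249, so MACS tags were 72.8% of both (69.8 to 75.7). This interval lay above those of ETV6, PKP2 and TMTC1, but it pools tags and covers counting error alone, not the spread between regions. The 2 strongest regions, with 177 and 143 MACS tags, weigh most in it. Ratios of single SOX5 regions overlapped those of the other genes, which reached 2.63 in ETV6, 2.60 in PKP2 and 2.34 in TMTC1. A difference between the genes beyond that spread was not tested. Along the span of regions, the 6 in its 3′ part, from 292 kb to 460 kb beyond the most 5′ region, had ratios of 1.85 to 4.97. The other 2 had 1.31 and 1.93. The division was not planned, 1.93 lies inside the range of the 6, and a trend along the gene was not tested.

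PKP2 regions were the most crowded of the 4 genes, 9 in 70.8 kb (chr12:32979597-33050425), all in cluster III. They formed a group at the 5′ end of this span and another at its 3′ end. Gene ends on hg19 were not used, so these positions are within the span of regions. The first held the 2 promoter-list regions, one 335 bp upstream of the start of ENST00000340811 (chr12:33049957-33050425) with 39 MACS tags and a tagcount of 26, and one 775 bp beyond the start of ENST00000546741 (chr12:33048152-33049184) with 89 and 55. Next to them, 2 intronic regions stood 63 bp apart, one with 74 MACS tags and a tagcount of 46 and one with 91 and 41.

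In the 3′ group of PKP2, 3 regions stood 380 and 600 bp apart, with 81, 108 and 40 MACS tags, against a tagcount of 39, 41 and 30. The middle one (chr12:32980798-32981428) was the strongest of the gene and had its highest ratio, 2.60, and its neighbour (chr12:32982029-32982542) had the lowest, 1.32. The 2 regions between the groups were weak, one with 43 MACS tags and a tagcount of 19 and one with 31 and 17. The median log2 ratio of the 9 regions was 0.83. MACS tags summed to 596 and tagcount to 314, and MACS tags were 65.5% of both (62.3 to 68.6). The median gap between neighbours was 1.2 kb, against 8.98 kb in ETV6, 16.3 kb in SOX5 and 14.7 kb in TMTC1, and 7.23 kb over 38 other short-arm genes with 4 or more regions. From summit to summit the median gap was 2.05 kb in PKP2, against 9.73 kb in ETV6, 17.3 kb in SOX5, 15.7 kb in TMTC1 and 8.01 kb over the 38 genes. With regions under 1 kb apart counted as 1, PKP2 had 5 regions in place of 9.

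TMTC1 had no region in the promoter list, although 1 lay in a start window, at 161 bp from the start of ENST00000319685 (chr12:29793715-29794681), with 90 MACS tags and a tagcount of 58. Its 8 regions spanned 232 kb (chr12:29714989-29946732). The strongest by tagcount (137, chr12:29945410-29946732) was also the highest tagcount of the 46 regions. It was intergenic, 8261 bp upstream of the start of ENST00000381224, in cluster II, and its second interval was 2932 bp wide. A neighbour 763 bp away, also intergenic and in cluster II, had a tagcount of 52, and an intronic cluster II region (chr12:29903194-29903573) had 36.

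The 5 cluster III regions of TMTC1 had 36, 77, 116, 90 and 34 MACS tags in order along the chromosome, against a tagcount of 25, 40, 49, 58 and 15 in that order. The highest ratio, 2.34, was at the strongest (chr12:29778066-29779003), and the lowest, 1.42, at the first (chr12:29714989-29715434). The median log2 ratio was 0.93, and MACS tags were 65.4% of both columns' sums of 353 and 187 (61.2 to 69.4). Between the outer TMTC1 regions, 2 further intronic regions were named for RP11-1110J8.1, with 52 and 35 MACS tags and a tagcount of 35 each. No region of another gene lay between the outer regions of ETV6, SOX5 or PKP2.

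**Figure D2:**
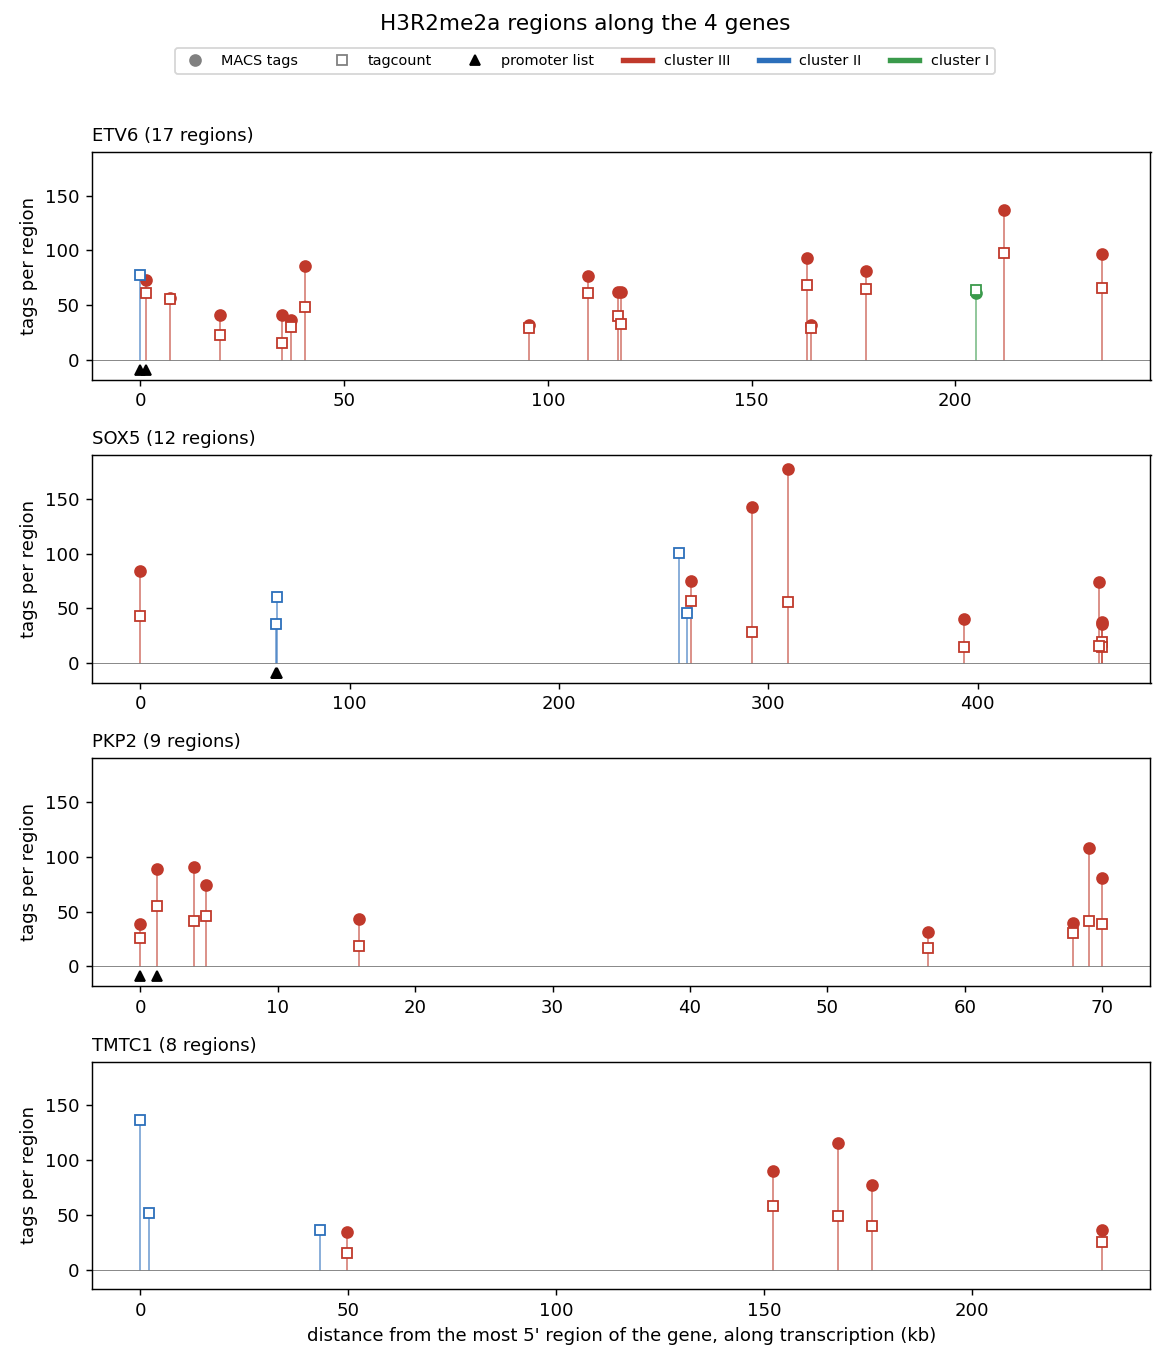
Regions of ETV6, SOX5, PKP2 and TMTC1 along transcription, in kb from the most 5′ region of each gene, with MACS tags (filled circles) and tagcount (open squares) per region, coloured by cluster, and with black triangles for promoter-list regions; cluster II has no MACS tags. The tallest MACS tags were 177 in SOX5, and the highest tagcount was 137 at the most 5′ region of TMTC1.

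The next comparison was how strongly the cluster III regions of these genes leaned to the MACS column. MACS tags were at least 4 times tagcount in 2 of the 37 regions (5.41%, 0.661 to 18.2), both in SOX5, against 15.8% of all 6519 cluster III regions and 1.71% (0.785 to 3.22) of the 526 other ones of the short arm. ETV6 had 0 of 15 (upper limit 21.8%), PKP2 0 of 9 (33.6%) and TMTC1 0 of 5 (52.2%), and each of these limits lay above both shares. The interval of SOX5 (25%, 3.19 to 65.1) held 15.8% and overlapped that of the other short-arm regions. Among intronic regions of the enhancer list alone, ETV6 had 0 of 13, with an upper limit of 24.7%. This was below the 30.6% (28.3 to 33.0) of the 1494 such regions outside the short arm. The upper limits of SOX5, PKP2 and TMTC1 there (71.0%, 41.0% and 60.2%) lay above that share. Other short-arm regions of that kind were at 4.58% (1.86 to 9.20). At 8 times tagcount none of the 37 was called, against 3.44% of all cluster III regions. At 2 times tagcount ETV6 had 1 of 15 (6.67%, 0.169 to 31.9), below the 51.6% of all cluster III regions and not distinguishable from the 17.9% (14.7 to 21.4) of the other short-arm regions. SOX5 had 5 of 8 (62.5%, 24.5 to 91.5), PKP2 4 of 9 (44.4%, 13.7 to 78.8) and TMTC1 2 of 5 (40.0%, 5.27 to 85.3), intervals that all held 51.6%. The interval of SOX5 lay above that of the other short-arm regions, and those of PKP2 and TMTC1 overlapped it. Among intronic regions of the enhancer list alone, SOX5 had 5 of 7 at 2 times tagcount (71.4%, 29.0 to 96.3). That interval overlapped the one of the other short-arm regions of that kind (34.0%, 26.5 to 42.1).

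The short arm as a whole had low ratios. The median log2 ratio was 0.45 in ETV6, 1.32 in SOX5, 0.83 in PKP2 and 0.93 in TMTC1, beside 0.57 in 526 other cluster III regions of the short arm (quartiles 0.33 and 0.86) and 1.07 in the 5956 remaining ones (quartiles 0.69 and 1.67). ETV6 was therefore inside the quartiles of its arm and below those of the rest. SOX5 was above the upper quartile of its arm and inside those of the rest, and TMTC1 was likewise, while PKP2 was inside both. Median MACS tags were 62 in ETV6, 74.5 in SOX5, 74 in PKP2 and 77 in TMTC1, beside 67 in the other short-arm regions and 49 in the remaining ones. Median tagcount was 48, 23.5, 39 and 40 in the same genes, beside 44 and 23.

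Per length, median tagcount was 44.5 tags per kb in SOX5 and 73.9 in ETV6, beside 66.1 in the other short-arm regions and 45.5 in the remaining ones. Median MACS tags per kb were 107 in SOX5 and 98.6 in ETV6, beside 97.6 and 97.3. The short arm carried 18.7 regions per Mb, against 4.10 on the long arm, and median tagcount in cluster III was 43 on the short arm and 23 on the long arm. The part of arm-wide tag density in the values of these genes was not tested.

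**Figure D3:**
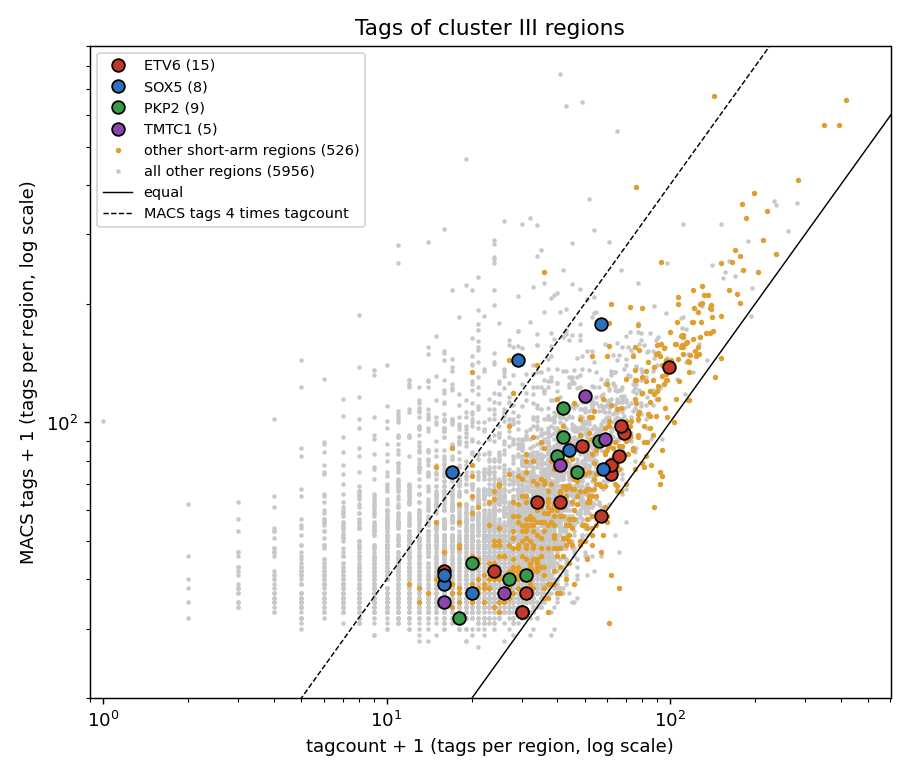
MACS tags + 1 against tagcount + 1 (tags per region, both log scales) of all cluster III regions, with the 4 genes in colour, other short-arm regions in orange and all others in grey; lines mark equal tags and MACS tags 4 times tagcount. Regions of ETV6 have ratios of 1.02 to 2.63, all under the dashed line at 4, and 2 regions of SOX5 lie above it.

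Among like regions ETV6 was again lowest and SOX5 highest of the 4 genes. Among intronic cluster III regions of the enhancer list, the median log2 ratio was 0.45 in ETV6 (13 regions), 1.36 in SOX5 (7), 1.04 in PKP2 (7) and 1.03 in TMTC1 (4). It was 0.79 in 153 other short-arm regions of that kind (quartiles 0.39 and 1.21) and 1.52 in the 1494 remaining ones (quartiles 0.92 and 2.14). Here TMTC1 was inside the quartiles of its arm, unlike over all of cluster III, and SOX5 was still above the upper one. PKP2 and TMTC1 did not differ beyond the spread of their regions, whose log2 ratios ran from 0.40 to 1.38 in PKP2 and from 0.51 to 1.23 in TMTC1 over all of cluster III. Those of ETV6 (0.03 to 1.39) and SOX5 (0.39 to 2.31) also overlapped each other.

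**Figure D4:**
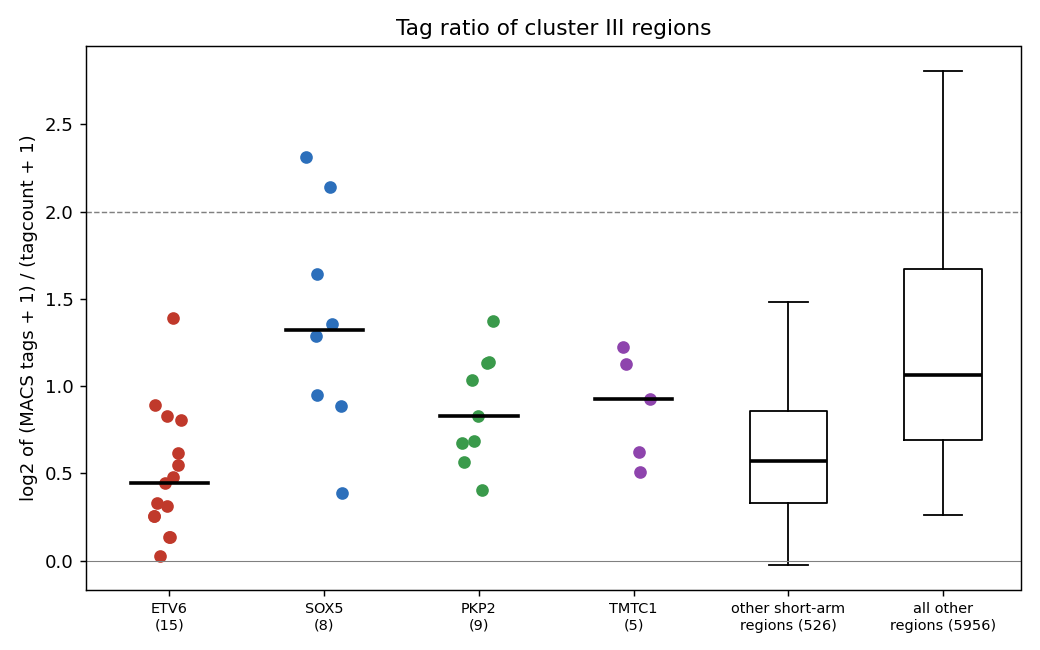
Log2 of (MACS tags + 1) / (tagcount + 1) for each cluster III region (points) of the 4 genes with its median (bar), beside boxes of quartiles and median with whiskers at the 5th and 95th percentiles for the other short-arm regions and all other regions; the dashed line is a ratio of 4. Medians were 0.45 in ETV6, 1.32 in SOX5, 0.83 in PKP2 and 0.93 in TMTC1, beside 0.57 and 1.07.

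In cluster II, where MACS tags were not given, the 8 regions of the 4 genes had tagcount values of 36 to 137 with a median of 56. The median was 128 over 48 other short-arm cluster II regions and 69 over the 2042 remaining ones. These sets were not matched to the 8 regions by list or position class. None of the 8 reached the short-arm median except the most 5′ TMTC1 region. Widths were like those of the arm, with a median of 629 bp over the 46 regions, 693 bp over the other short-arm regions and 507 bp over the remaining ones.

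Other genes of the short arm had as many regions as TMTC1 or more. They were NTF3, a neurotrophin gene (9), and DUSP16, a phosphatase gene, ST8SIA1, a sialyltransferase gene, and CACNA1C, a calcium channel gene (8 each). The name Y_RNA, shared by many copies, is left aside. Median log2 ratios in cluster III were 0.12 in NTF3, 0.54 in DUSP16, 0.74 in ST8SIA1 and 0.62 in CACNA1C, all below those of SOX5, PKP2 and TMTC1, and the first below that of ETV6. Introns held 55.6% of the NTF3 regions, 37.5% of those of DUSP16, 62.5% of those of ST8SIA1 and 87.5% of those of CACNA1C.

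Genes most like each of the 4 were sought among 189 genes with 4 or more regions, by shares in clusters II and III, in the enhancer list and in introns, and by median log2 ratio. ETV6 was closest to CACNA1C (distance 0.83 in SD units), NOTCH2 (0.87) and ST8SIA1 (0.97). SOX5 was closest to RAD51B (0.80), NMNAT2 (0.82) and MGLL (1.02). PKP2 was closest to NAV1 (0.13), ISPD (0.21) and B4GALNT3 (0.29), and TMTC1 to NMNAT2 (0.43), MAN1C1 (0.71) and MCF2L (0.82). CACNA1C, ST8SIA1 and B4GALNT3 are on the short arm too. The measure rests on the same 2 libraries and on as few as 4 regions per gene.

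Relatives of the 4 genes were looked up in the lists as well. The 4 genes were chosen for their many regions and their relatives were not, so the numbers of regions are not compared. The share of all annotated genes that were named was not computed. The number of genes named in each list of relatives therefore cannot be read as high or low. Of 28 ETS factor genes 7 were named. FLI1 had 3 regions, 2 of them in cluster II with a tagcount of up to 134, and ELF3, ELK4 and ETV3 had 2 each, all in cluster III. The strongest ELF3 region had 79 MACS tags and a tagcount of 54. The 9 cluster III regions of the 6 ETS genes other than ETV6 had a median log2 ratio of 1.00, against 0.45 in ETV6. Those 6 genes lie off chromosome 12. Over cluster III the median was 0.57 in the other short-arm regions and 1.07 in the remaining ones, and the part of the arm in this contrast was not tested.

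Of 20 SOX genes 6 were named, each with at least 1 region in cluster III, and SOX5 was the one with cluster II regions too. SOX13, another SoxD gene, had 3 regions with up to 90 MACS tags and a tagcount of 27 there, SOX12 had 2, and SOX1, SOX2 and SOX7 had 1 each. The median log2 ratio of the 8 regions outside SOX5 was 1.14, against 1.32 in SOX5. Here too the relatives lie off chromosome 12, beside a median of 1.07 in cluster III regions outside the short arm and 0.57 in its other ones. Of 19 desmosome and armadillo genes, PPL, which encodes periplakin, was the other gene named beside PKP2, with 1 region in cluster III (47 MACS tags, tagcount 39) and 1 in cluster II. Of 17 genes of O-mannosylation and cadherins 8 were named. TMTC4 had 2 regions, both in cluster III, and the other 6 had 1 each, among them CDH1, the E-cadherin gene, in cluster I, CDH4 in cluster II, and CDH5, with 101 MACS tags and a tagcount of 26. No gene of these lists other than the 4 lies on chromosome 12 among those named.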

How the data were processed

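Chromatin was crosslinked, sonicated and immunoprecipitated, per the labels' protocols. The submitters' processing notes name bcl2fastq, Bowtie2, MACS 1.4 and deepTools and the build hg19 (GRCh37), without saying what each did. Both tag columns hold unscaled whole-number counts as deposited. Per the file headers, starts had windows of 1250 bp and upstream sequence reached to 5000 bp. No source used here gives the criteria of the lists, the control of peak calling, the library of tagcount or the depth.

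Joining the lists on identical coordinates matched all 8819 regions. The short arm was taken as chromosome 12 below 36 Mb. Ratios had 1 tag added to both columns. The 4 genes, the lists and the comparisons were chosen with earlier results of these data known. In each list of relatives, up to 4 other genes with most regions were named (ties broken after values were seen). The SOX list departed from this, as all 5 others were named. Also named were short-arm genes with as many regions as TMTC1 or more, and the 3 genes closest to each of the 4 in Euclidean distance. GENCODE 44, which held 17 of the 18 transcripts named, and RefSeq are on GRCh38, and their coordinates were never set against the regions. Fold calls were run on simulated counts with a planted change well above the cut-off and with expected tagcount kept off low values. That run checks the code and cannot show how reliable calls are at low tagcount. Python 3.11.15, pandas 2.3.3 and scipy 1.17.1 were used.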

Additional observations from a re-analysis of the deposited data

How the results depend on the processing

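The results were 28 values, 7 for each of the 4 genes, and 108 alternative values were computed for them. Of these, 103 stayed within 1.5 times a count or gap, inside the interval of a share, or within 1 SD over the regions of a median, and no median changed sign. Some of the 103 could not move, so their number is not a measure of stability. Joins by overlap could not lower a count, as all regions had joined on identical coordinates. Adding regions of other genes between the outer ones changed nothing for ETV6, SOX5 and PKP2, which had none. The intervals of the shares were also wide. With regions under 1 kb apart counted as 1, PKP2 had 5 regions in place of 9. With regions below the median tagcount of their list left out, SOX5 had 7 in place of 12. From summit to summit, the median gap of PKP2 was 2.05 kb in place of 1.2 kb. At a fold of 2, 44.4% of the PKP2 regions were called, and at a fold of 8, 0% of the SOX5 regions. These follow from the construction of each alternative. No paired analysis was possible because each condition had 1 library.
Unknown depth limits every ratio to a comparison with other regions, and with 5 to 15 cluster III regions per gene the shares have wide intervals. Leaving out a replicate could not be tried.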

Other observations

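Shared second intervals were not particular to SOX5. Of the 2098 cluster II regions, 62 shared theirs with another region of the list, and over the 8 cluster II regions of the 4 genes there were 7 distinct second intervals. The widths of these second intervals ran from 409 bp at TMTC1 (chr12:29943813-29944221) to 2932 bp at the region next to it (chr12:29944262-29947193), where the first intervals were 568 and 1323 bp wide.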
